A study of Mus musculus with 4 samples.

Results

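DNA replication and mitosis genes were described here as a set of 40 named genes, 22 that act in S phase and 18 that act in G2 and mitosis, in the lenses of newborn mice with and without Hsf4. They were chosen by name from knowledge of the cell cycle, but with earlier results of these data known. Each is represented by the probe set with the highest mean over the arrays among those annotated to that gene alone. A probe set was found for 39 of the 40, out of 18193 genes so named on the array, and 38 were bright enough to be tested, out of 11595. Ccnb1 was not analysed here, and Tyms, the thymidylate synthase, did not reach the filter on dim genes.

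The series measured RNA from lens tissue of 129S3 mice at postnatal day 0.5 on Affymetrix arrays, with 2 arrays of wild-type lenses and 2 of lenses labelled as HSF4 knockout, numbered 1 and 2 in each group. All 4 samples are labelled male, and no other allele or treatment is named. The sources used here do not say which part of Hsf4 was removed or whether lenses of several animals were pooled. The p-values therefore cover the spread among these 4 arrays alone, and that spread may be technical. Hsf4 encodes heat shock factor 4, a transcription factor of the lens, and the question here is whether RNAs of dividing cells differ without it.

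In a dividing cell, licensing factors load the MCM helicase onto origins in G1, the helicase is switched on in S phase, and polymerases copy the DNA behind it. Cyclin B with CDK1 then drives the cell into mitosis, where kinesins build the spindle and a checkpoint at the kinetochores holds the chromosomes until all are attached. Most S-phase genes are switched on by E2F factors, and most mitotic genes are held off by the DREAM complex and later switched on by B-MYB and FOXM1, through a CHR element (cell cycle genes homology region) often found near a CCAAT box. In the lens, cells of the anterior epithelium divide, most of all near the equator, and leave the cycle as they become fibres. In whole-lens RNA, fewer dividing cells and less RNA per dividing cell cannot be told apart.

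The starts of these genes were searched for the words of both programmes, and some starts are shown. RefSeq windows on GRCm38.p6, from 250 bases before to 50 after the annotated start, were found for 19 S-phase members (20 windows) and 15 mitotic members. Each was searched on both strands for the E2F words TTTCCCGC, TTTCGCGC, TTTGCCGC and TTTGGCGC, for the CHR words TTTGAA and TTCGAA, and for CCAAT. An E2F word was found in 8 of 20 S-phase windows and 1 of 15 mitotic windows (6.67%, that of Cdk1), against 2.26% of the 32851 windows in the RefSeq table. A CHR word was found in 11 of 15 mitotic windows (73.3%) and 4 of 20 S-phase windows (20.0%), against 19.2% of all windows. CCAAT was found in 75.0% of S-phase, 86.7% of mitotic and 37.4% of all windows. A CHR word together with CCAAT was found in 73.3% of mitotic, 20.0% of S-phase and 7.52% of all windows. These matches describe letters in the windows and do not show that a factor binds.

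**Figure D1:**
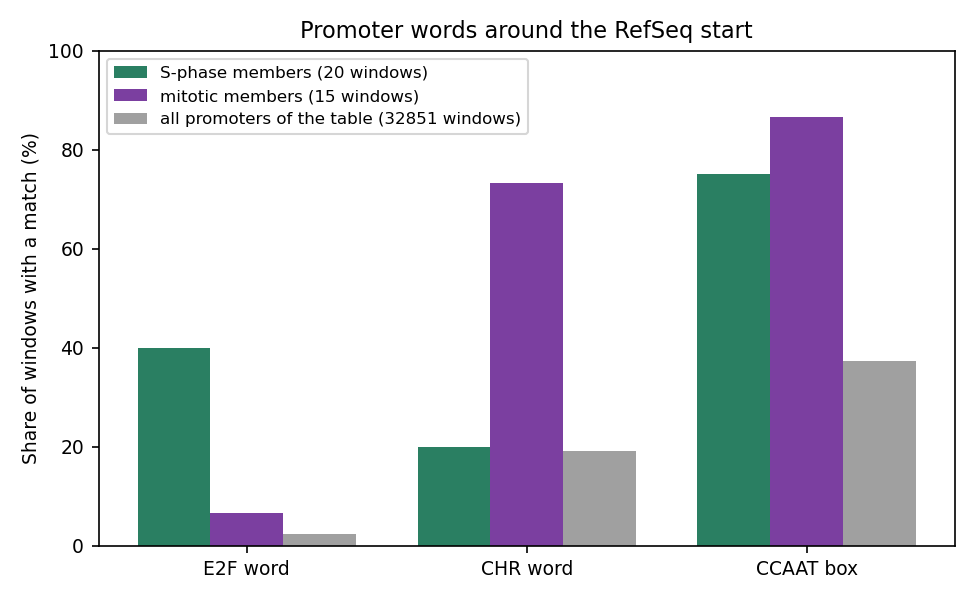
Share of 300-base promoter windows (vertical axis, percent) with at least 1 match to an E2F word, a CHR word or CCAAT, for the S-phase members (green, 20 windows), the mitotic members (purple, 15 windows) and all 32851 windows of the RefSeq table (grey). The E2F bar is highest for the S-phase members (8 of 20) and the CHR bar for the mitotic members (73.3%).

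The 250 bases before the start are shown 5′ to 3′ for 8 members. They are the 3 with a window and the lowest p in each phase (Pola1, Cdc6 and Rrm2; Aurka, Nusap1 and Ccnb2) and, chosen after the matches were seen, the member with the most E2F words (Mcm6) and the one with the most CHR words (Top2a). Capitals mark the words searched on either strand. The windows lie at chrX:93632156-93632405 on the minus strand (Pola1), chr11:98907901-98908150 on the plus strand (Cdc6), chr12:24708004-24708253 on the plus strand (Rrm2), chr1:128359706-128359955 on the minus strand (Mcm6), chr2:172370571-172370820 on the minus strand (Aurka), chr2:119618048-119618297 on the plus strand (Nusap1), chr9:70421555-70421804 on the minus strand (Ccnb2) and chr11:99024190-99024439 on the minus strand (Top2a).
Pola1: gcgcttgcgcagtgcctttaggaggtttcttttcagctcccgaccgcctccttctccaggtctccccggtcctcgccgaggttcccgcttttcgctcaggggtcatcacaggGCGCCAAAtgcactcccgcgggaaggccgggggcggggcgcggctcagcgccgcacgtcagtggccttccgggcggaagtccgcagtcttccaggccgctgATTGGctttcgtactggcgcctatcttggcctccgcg
Cdc6: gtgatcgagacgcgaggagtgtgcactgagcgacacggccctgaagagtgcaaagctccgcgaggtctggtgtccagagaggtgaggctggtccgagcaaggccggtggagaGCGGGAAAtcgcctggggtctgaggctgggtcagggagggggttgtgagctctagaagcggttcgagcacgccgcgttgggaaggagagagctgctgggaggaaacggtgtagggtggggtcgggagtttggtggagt
Rrm2: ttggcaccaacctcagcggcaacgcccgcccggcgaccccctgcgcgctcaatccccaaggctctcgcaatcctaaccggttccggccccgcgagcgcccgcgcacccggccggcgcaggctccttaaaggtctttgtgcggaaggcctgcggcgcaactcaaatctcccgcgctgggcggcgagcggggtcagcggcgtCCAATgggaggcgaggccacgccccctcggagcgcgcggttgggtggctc
Mcm6: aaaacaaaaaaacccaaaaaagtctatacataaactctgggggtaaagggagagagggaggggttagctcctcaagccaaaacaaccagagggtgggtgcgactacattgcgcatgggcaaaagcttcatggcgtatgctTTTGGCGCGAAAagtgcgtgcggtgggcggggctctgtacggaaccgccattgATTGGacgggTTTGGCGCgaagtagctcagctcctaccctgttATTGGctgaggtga
Aurka: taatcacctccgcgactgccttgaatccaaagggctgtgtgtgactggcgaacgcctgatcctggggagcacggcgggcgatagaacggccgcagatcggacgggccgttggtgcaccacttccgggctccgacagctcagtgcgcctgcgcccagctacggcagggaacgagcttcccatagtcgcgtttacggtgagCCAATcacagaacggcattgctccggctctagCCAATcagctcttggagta
Nusap1: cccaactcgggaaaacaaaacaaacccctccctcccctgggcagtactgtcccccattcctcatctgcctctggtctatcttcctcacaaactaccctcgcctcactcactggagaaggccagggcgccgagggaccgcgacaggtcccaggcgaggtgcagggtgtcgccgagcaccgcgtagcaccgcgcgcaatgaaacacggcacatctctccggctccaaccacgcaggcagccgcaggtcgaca
Ccnb2: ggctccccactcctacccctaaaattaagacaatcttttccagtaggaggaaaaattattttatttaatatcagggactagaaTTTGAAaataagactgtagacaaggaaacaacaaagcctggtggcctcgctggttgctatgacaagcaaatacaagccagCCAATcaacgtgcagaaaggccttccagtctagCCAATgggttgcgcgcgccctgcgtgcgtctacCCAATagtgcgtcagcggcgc
Top2a: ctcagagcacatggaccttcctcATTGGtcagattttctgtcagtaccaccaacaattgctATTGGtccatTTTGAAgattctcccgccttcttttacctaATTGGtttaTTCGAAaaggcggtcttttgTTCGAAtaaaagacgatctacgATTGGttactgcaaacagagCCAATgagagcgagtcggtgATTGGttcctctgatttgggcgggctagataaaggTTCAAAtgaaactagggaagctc

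Pola1 and Cdc6 each hold 1 E2F word, which lies from -138 to -131 counted from the start in both. Mcm6 holds 3, of which 2 overlap each other (-110 to -103 and -106 to -99) and the other lies from -47 to -40. Rrm2 and Nusap1 hold none, and Nusap1 holds no word of any kind searched. Ccnb2 shows 3 CCAAT boxes, which begin at -87, -54 and -21, and Top2a shows 6, with 4 CHR words. The CHR words of Aurka (from 33) and the nearer one of Ccnb2 (from 5) lie after the start, in the part not shown.

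The arrays differed in scale and in some label checks. Median intensities as deposited were 21.4 on wild type 1, 18.5 on knockout 1, 10.5 on wild type 2 and 6.58 on knockout 2. Means with 2% trimmed at each end were 95.6, 85.0, 45.1 and 21.2 in that order, so knockout 2 was the weakest array. The values were therefore quantile normalized, and every level below is a normalized intensity. The only probe set for Hsf4 measured 505 and 138 under the wild-type label and 1212 and 413 under the knockout label. It was brighter on the knockout array within each number, its groups overlapped, and its place relative to the deletion is unknown here. It does not check the labels, and every direction below is that of the arrays as labelled. Xist, the RNA of the inactive X of females, measured 605 on wild type 1 and 260.5 on knockout 1, but 58.0 on wild type 2 and 9.01 on knockout 2, which goes against the male label of the number 1 samples. The Y-linked genes ran the other way by number. Eif2s3y measured 60.4 and 100.5 on the wild-type and knockout arrays numbered 1 against 208 and 161 on those numbered 2, Uty 9.42 and 18.4 against 37.3 and 36.6, and Kdm5d 22.2 and 41.6 against 54.1 and 43.2. The control probe set of the 3′ part of 18S ribosomal RNA measured 3228 on knockout 2, 349 on wild type 2 and 10.6 to 12.8 on the others. That of its 5′ part measured 7309 on knockout 2 and 6898 on wild type 2, against 14.3 and 1.52 on knockout 1 and wild type 1, so both arrays numbered 2 stood apart. The lens label was borne out by the crystallins Cryaa and Cryba1, which measured 8512 to 9805 on all 4 arrays.

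No S-phase or mitotic member passed the test, and changes on both sides of 0 were found in each phase. The median log2 change, taken as knockout less wild type after adding 16 to each intensity (which understates changes of dim genes), was -0.29 over the 21 S-phase members tested and -0.15 over the 17 mitotic members tested, against -0.0097 over all genes tested. In limma's fit over all genes with Benjamini-Hochberg adjustment, 0 of 38 members had an adjusted p under 0.05, against 0.0345% of all genes (4 of 11595, 0.0259% lower and 0.00862% higher). The adjusted p was 1 for all 38, and 0 of 38 had an unadjusted p under 0.05, against 2.35% of all genes. The mean change was below 0 for 30 of the 38 members (51.4% of all genes), 18 of 21 in S phase and 12 of 17 in mitosis.

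The 4 arrays leave wide margins. The 95% confidence interval of the change included 0 for all 38 members and its median reach was 0.70 to either side. For 11 members it reached below -1 and for 2 (Aurka and Cenpe) above 1, so changes of that size lie within the error of these arrays for those genes. For the rest the interval lay between -1 and 1.

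**Figure D2:**
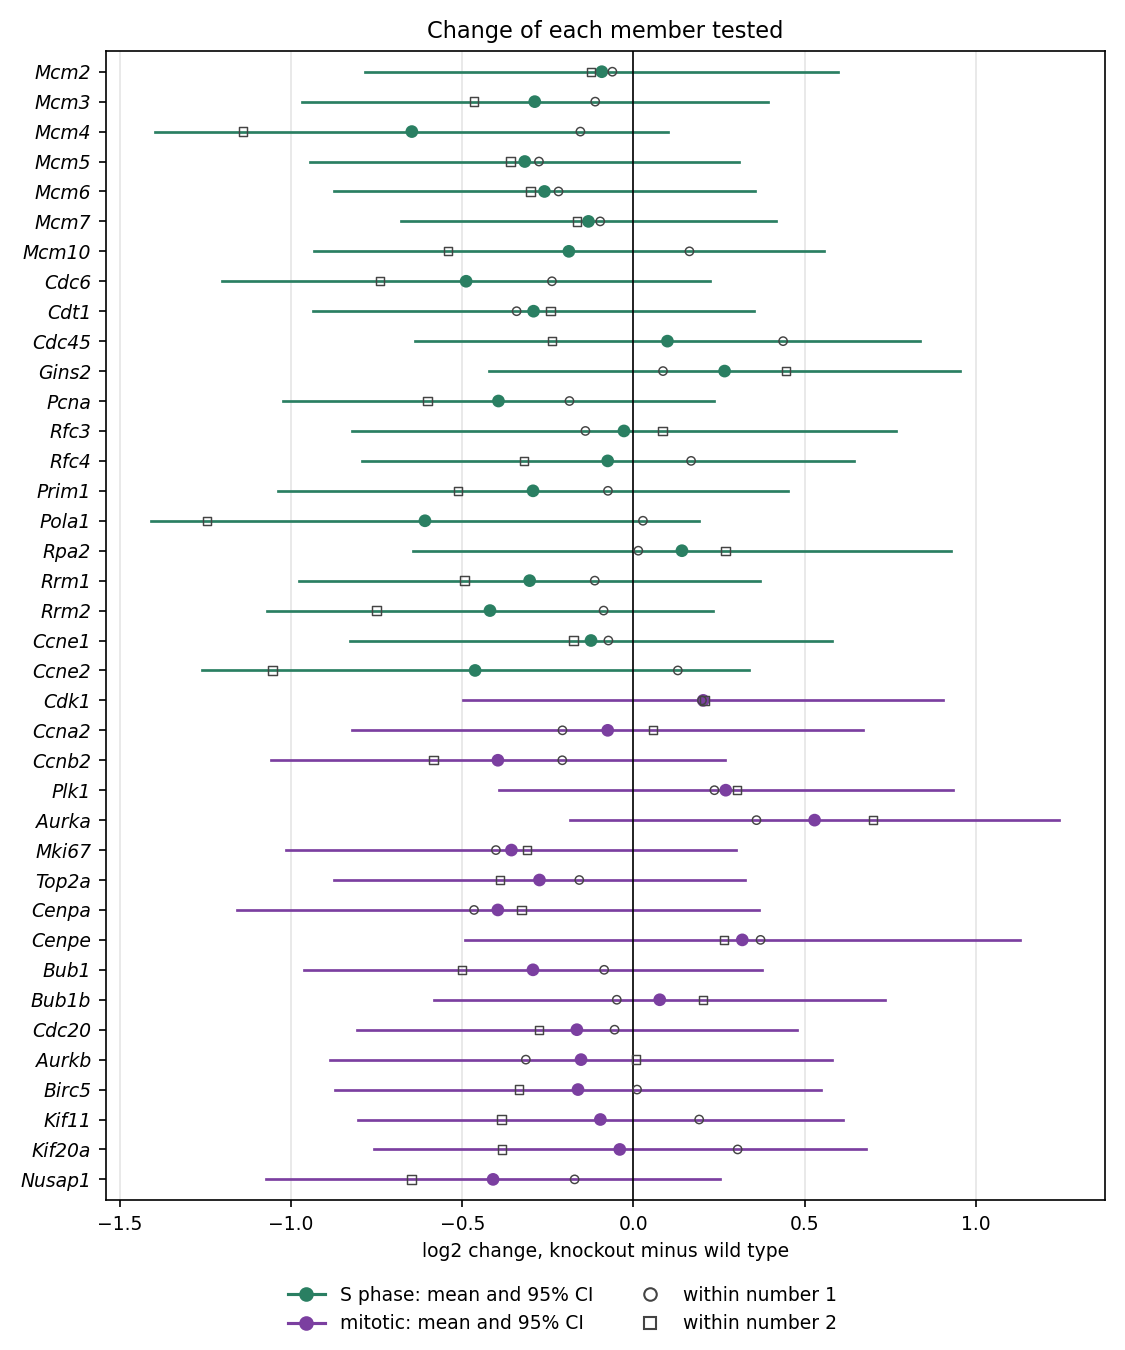
Log2 change of each of the 38 members tested (horizontal axis, knockout minus wild type), with filled points for the mean of 2 against 2 arrays, lines for the 95% confidence interval of limma's fit, open circles for the change within number 1 and open squares for that within number 2. All intervals cross 0, 30 means lie to its left, and Aurka has the highest mean (0.53) and Mcm4 the lowest (-0.65).

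The knockout signal was lower within both numbers for 20 of 38 members (27.5% of all genes) and higher within both for 6 (26.1% of all genes). Among S-phase members the counts were 13 and 2 of 21, and among mitotic members 7 and 4 of 17. Both knockout arrays lay below both wild-type arrays for 12 members, 8 in S phase and 4 in mitosis (14.3% of all genes), and above both for 3, Gins2, Plk1 and Aurka (12.7% of all genes). The labels tie the numbers to no litter, batch or day, so arrays of the same number are not known to be matched. Knockout 1 less wild type 2 had a median of -0.39 in S phase and -0.33 in mitosis, against -0.011 over all genes. Knockout 2 less wild type 1 had -0.25 in S phase and 0.13 in mitosis, against -0.027 over all genes. Whether S-phase and mitotic genes differ from each other was not tested.

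Of the 11 helicase subunits, loaders and activators tested, 9 had a mean change below 0 and 8 were lower within both numbers. The MCM2 to MCM7 proteins form the ring that unwinds DNA, and all 6 of their genes were lower within both numbers. Mcm4 measured 279.7 and 332 on the wild-type arrays and 249.6 and 142 on the knockout arrays. Both knockout values lay below both wild-type values, and most of the gap came from knockout 2. The log2 change of Mcm4 was -0.65 (SE 0.33, 95% interval -1.40 to 0.10), with -0.15 within number 1 and -1.14 within number 2.

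Mcm6 measured 448 and 417 in wild type and 383 and 336 in knockout, a log2 change of -0.26 (SE 0.27). Mcm7, of the same ring, measured 947 and 1116 in wild type and 884 and 993 in knockout (log2 -0.13, SE 0.25), and its groups overlapped. Mcm5 measured 314 and 339.6 in wild type and 257 and 261 in knockout, with nearly the same change within number 1 (-0.28) and within number 2 (-0.36). Mcm3 (log2 -0.29) also had groups that did not overlap, while those of Mcm2 (log2 -0.092) did. The other probe set of Mcm5 above the filter had -0.034, with -0.17 within number 1 and 0.099 within number 2, and its groups overlapped.

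The MCM genes are measured by several probe sets, which gives a repeat of the measurement on the same arrays. All 16 probe sets of Mcm2 to Mcm7 above the filter had a mean change below 0. They ran from -0.65 to -0.03 with a median of -0.23. Of them, 14 were lower within both numbers, and the exceptions were probe sets of Mcm3 and Mcm5. The 16 share their RNA and their arrays, so they are not 16 independent samples.

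Of the loaders, Cdc6 measured 44.5 and 48.8 in wild type and 35.3 and 22.8 in knockout (log2 -0.49, SE 0.32), and the groups did not overlap. Cdt1, which brings the MCM ring to origins, was measured at 348 ± 49.9 (SD, n = 2) in wild type and 280.4 ± 26.4 (SD, n = 2) in knockout (log2 -0.29), also without overlap. Its other probe set above the filter had -0.15, with -0.58 within number 1 and 0.27 within number 2, and groups that overlapped. The factors that turn the loaded ring into a working helicase did not all have a mean change below 0. Gins2, a subunit of the GINS complex, measured 46.1 and 46.8 in wild type and 49.9 and 69.6 in knockout (log2 0.27, SE 0.31), but its other probe set above the filter had -0.16. Cdc45 (log2 0.099) and Mcm10 (log2 -0.19) each had opposite directions within the numbers. For Cdc45 these were 0.44 within number 1 and -0.24 within number 2. With median scaling its mean change was -0.0019, where the median of all genes was -0.15.

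At the fork, all 6 genes had groups that overlapped, and the difference between the wild-type arrays was large. Pcna, the sliding clamp, measured 1635 and 2770 in wild type and 1434 and 1820 in knockout. The log2 change was -0.39 (SE 0.28), smaller than the 0.76 by which wild type 2 exceeded wild type 1. Prim1, the primase subunit that starts each new strand, measured 188 and 315 in wild type and 177 and 216 in knockout (log2 -0.29, SE 0.33). Both genes were lower within both numbers.

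Pola1, the catalytic subunit of DNA polymerase alpha, measured 64.1 and 104 in wild type and 65.7 and 34.6 in knockout. Its change of -0.61 (SE 0.36) came from number 2 alone, with 0.028 within number 1 and -1.25 within number 2. Rfc3 and Rfc4, subunits of the clamp loader, had log2 changes of -0.028 and -0.075, with directions that differed between the numbers. Rpa2, which coats single-stranded DNA, had 0.14 and was higher within both numbers, as was its other probe set (0.13). With median scaling Rpa2 had -0.068, where the median of all genes was -0.15.

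The ribonucleotide reductase genes, whose enzyme makes deoxyribonucleotides, were lower on both knockout arrays by their brightest probe sets. Rrm1, the large subunit, measured 237 and 329 in wild type and 218 and 229 in knockout (log2 -0.30, SE 0.30). Its other probe set above the filter measured 211 and 289 in wild type and 184 and 267 in knockout (log2 -0.14). That probe set was lower within both numbers, but its groups overlapped. Rrm2, the subunit made in S phase, measured 400.0 and 528 in wild type and 376 and 307 in knockout (log2 -0.42, SE 0.29). Its other probe sets had -0.59 and -0.79, and all 3 were lower within both numbers, so the direction of Rrm2 did not depend on the probe set. Tyms measured 7.88 and 21.3 in wild type and 12.3 and 2.23 in knockout, all near the dim end of the arrays. No test was made of it, and a further probe set for Tyms also names a pseudogene.

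The E cyclins activate CDK2 at the entry into S phase. Ccne1 measured 43.9 and 61.9 in wild type and 41.0 and 53.0 in knockout (log2 -0.12, SE 0.31), and its second probe set had 0.0058. Ccne2 measured 36.7 and 63.7 in wild type and 41.7 and 22.4 in knockout (log2 -0.46, SE 0.36), with 0.13 within number 1 and -1.05 within number 2. The groups overlapped for both genes, and in Ccne2 knockout 2 alone lay below the others.

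**Figure D3:**
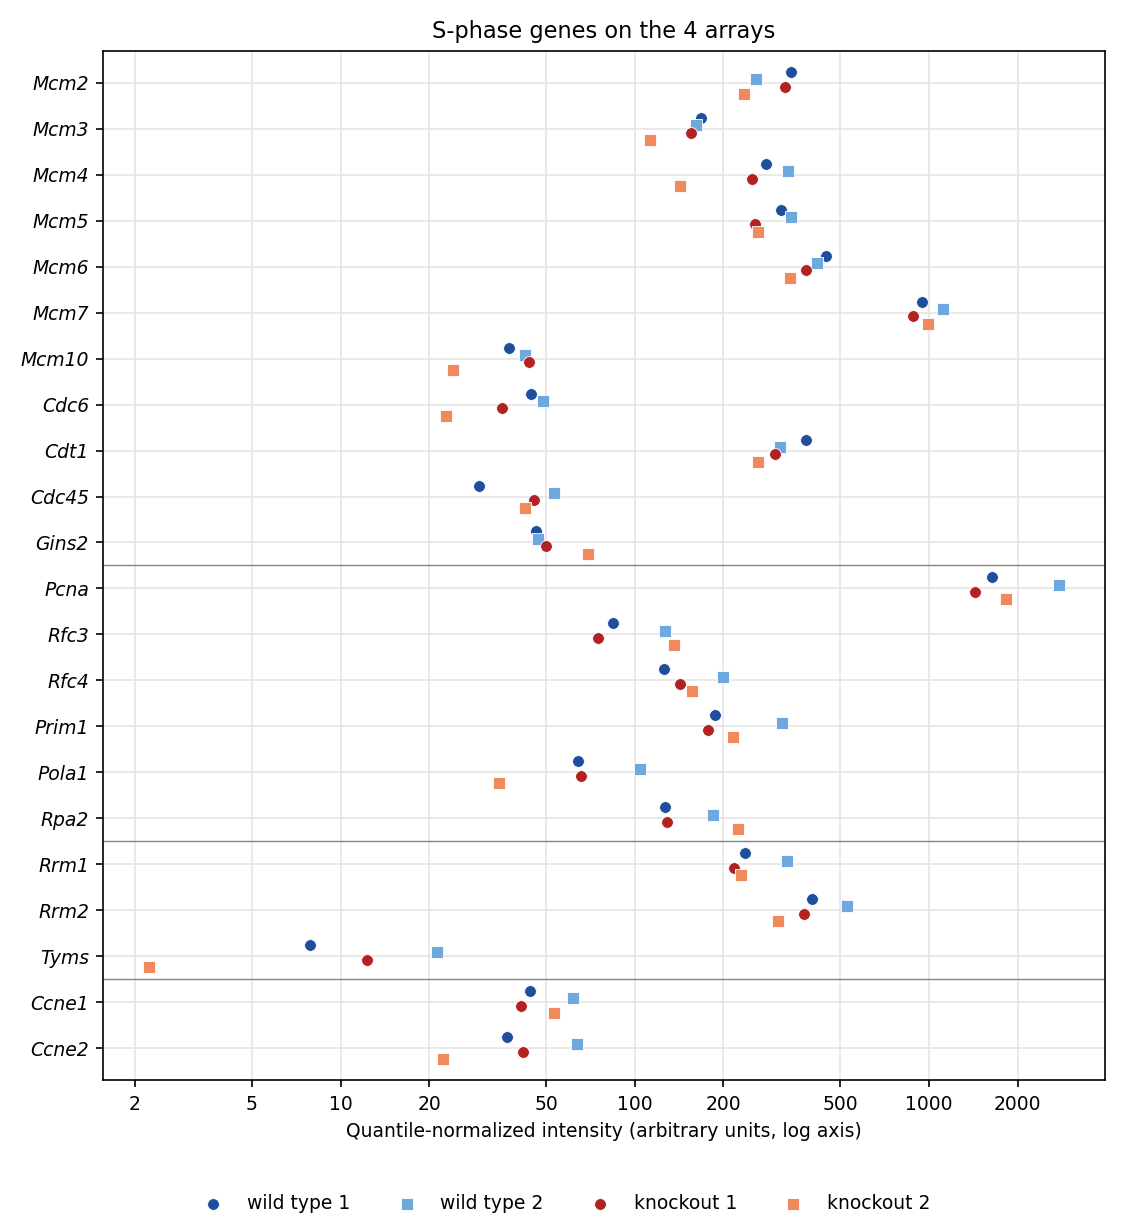
Quantile-normalized intensity of the 22 S-phase genes (horizontal log axis, arbitrary units) on each array, wild type in blue and knockout in red or orange, number 1 as circles and number 2 as squares; lines divide helicase genes, fork genes, nucleotide supply and E cyclins. Knockout 2 is the lowest of the 4 values for Mcm4, Cdc6, Pola1, Rrm2 and Ccne2, while wild type 2 is the highest for all of these and for Pcna and Prim1.

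Among genes of mitotic entry, the 3 kinases measured higher within both numbers and the B cyclin lower. Aurka, the kinase of centrosome maturation, had the highest change of all members, at 65.8 and 78.4 in wild type and 88.9 and 137 in knockout. Both knockout arrays lay above both wild-type arrays, and the log2 change was 0.53 (SE 0.32, 95% interval -0.19 to 1.24), with 0.36 and 0.70 within the numbers. Plk1, a kinase that acts from mitotic entry to its end, measured 82.3 ± 10.4 (SD, n = 2) in wild type and 102 ± 8.71 (SD, n = 2) in knockout (log2 0.27), also without overlap. Ccnb2, a partner of CDK1, ran the other way at 175 and 192 in wild type and 149 and 123 in knockout (log2 -0.40, SE 0.30), and its groups did not overlap.

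Cdk1, the kinase that drives mitosis, measured 313 and 446 in wild type and 362 and 517 in knockout. It was higher within both numbers by nearly the same amount (0.20 and 0.21), but the arrays numbered 2 were well above those numbered 1 and the groups overlapped (log2 0.20, SE 0.31). Ccna2, the cyclin of S phase and G2, measured 299 and 412 in wild type and 257 and 429 in knockout (log2 -0.075, SE 0.33), with opposite directions within the numbers.

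Of the 9 chromosome and kinetochore genes, 7 had a mean change below 0 and 5 were lower within both numbers. Mki67, the gene of the Ki-67 proliferation antigen, measured 437 and 552 in wild type and 327 and 442 in knockout (log2 -0.36, SE 0.29), with -0.40 and -0.31 within the numbers. Top2a, the topoisomerase that untangles sister chromatids, measured 638 and 829.7 in wild type and 569.7 and 629 in knockout (log2 -0.27, SE 0.27). The groups of Top2a did not overlap, and its other probe set above the filter had -0.72. Cenpa, the histone of centromeres, measured 105 and 152 in wild type and 71.4 and 118 in knockout (log2 -0.40, SE 0.34), with overlap between the groups.

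The checkpoint kinase gene Bub1 measured 76.8 ± 9.71 (SD, n = 2) in wild type and 59.7 ± 7.49 (SD, n = 2) in knockout. Its log2 change was -0.29, without overlap. The partner of Bub1, Bub1b, had 0.077. The other probe sets of Bub1b above the filter had 0.83 (intensities of 1.13 to 36.5) and 0.14. With median scaling Bub1b had -0.10, where the median of all genes was -0.15. Cdc20, the activator of the anaphase-promoting complex that the checkpoint holds back, had -0.17 and was lower within both numbers, but a second probe set of it had 0.16. Aurkb and Birc5, both of the chromosomal passenger complex, had -0.15 and -0.16 and opposite directions within the numbers. Cenpe, a kinesin of the kinetochore, had 0.32, with 44.8 and 84.1 in wild type and 62.6 and 104 in knockout, higher within both numbers and with groups that overlapped.

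Of the spindle genes, Nusap1, which bundles microtubules, measured 292 and 404 in wild type and 258 and 252 in knockout (log2 -0.41, SE 0.30), without overlap. Kif11, the kinesin that pushes the spindle poles apart, measured 69.2 and 109 in wild type and 81.3 and 79.9 in knockout (log2 -0.10), and its other probe sets had 0.13 and 0.15. Kif20a, a kinesin of the midzone, had -0.040. The brightest probe set of Kif11 and that of Kif20a were higher within number 1 and lower within number 2. The other probe sets of Kif11 had -0.084 and 0.096 within number 1, and 0.33 and 0.20 within number 2.

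**Figure D4:**
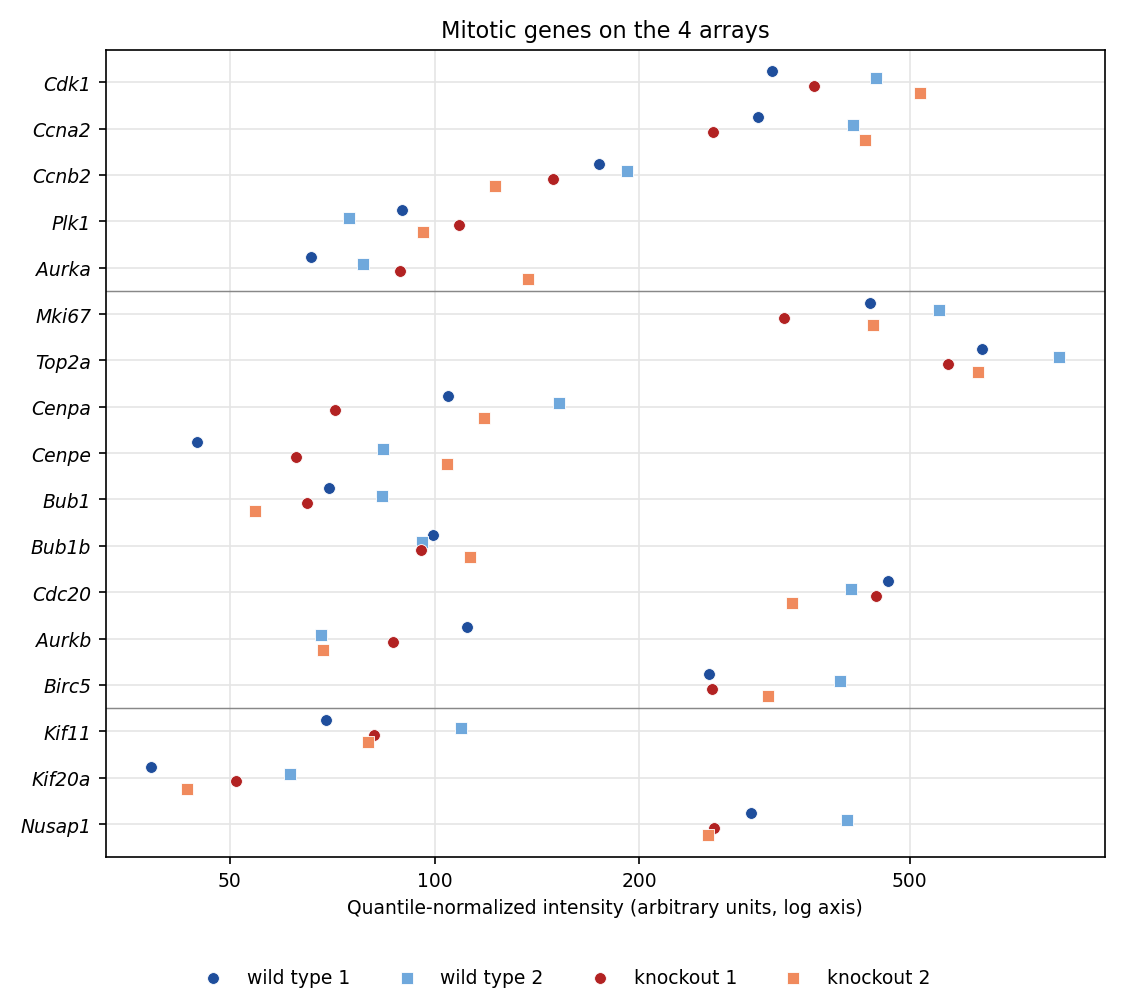
Quantile-normalized intensity of the 17 mitotic genes with a probe set (horizontal log axis, arbitrary units) on each array, wild type in blue and knockout in red or orange, number 1 as circles and number 2 as squares; lines divide mitotic entry, chromosome and kinetochore, and spindle genes. Both knockout arrays lie above both wild-type arrays for Plk1 and Aurka and below them for Ccnb2, Top2a, Bub1 and Nusap1.

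The size of the change went with the array number. The median change of the S-phase members was -0.087 within number 1 and -0.36 within number 2, and that of the mitotic members was -0.055 and -0.31, while the medians over all genes tested were 0.0075 and -0.029. The change within number 2 was the larger in size for 30 of 38 members, against 66.0% of all genes tested. In wild type alone, array 2 exceeded array 1 for 30 of 38 members, by a median of 0.38 in S phase and 0.37 in mitosis, against 51.7% of all genes and a median of 0.020. On the knockout arrays the same difference had a median of -0.075 for S phase and 0.14 for mitosis. The gap between the wild-type arrays was larger than the change between the groups for 22 of 38 members (57.9%) and for 62.9% of all genes.

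**Figure D5:**
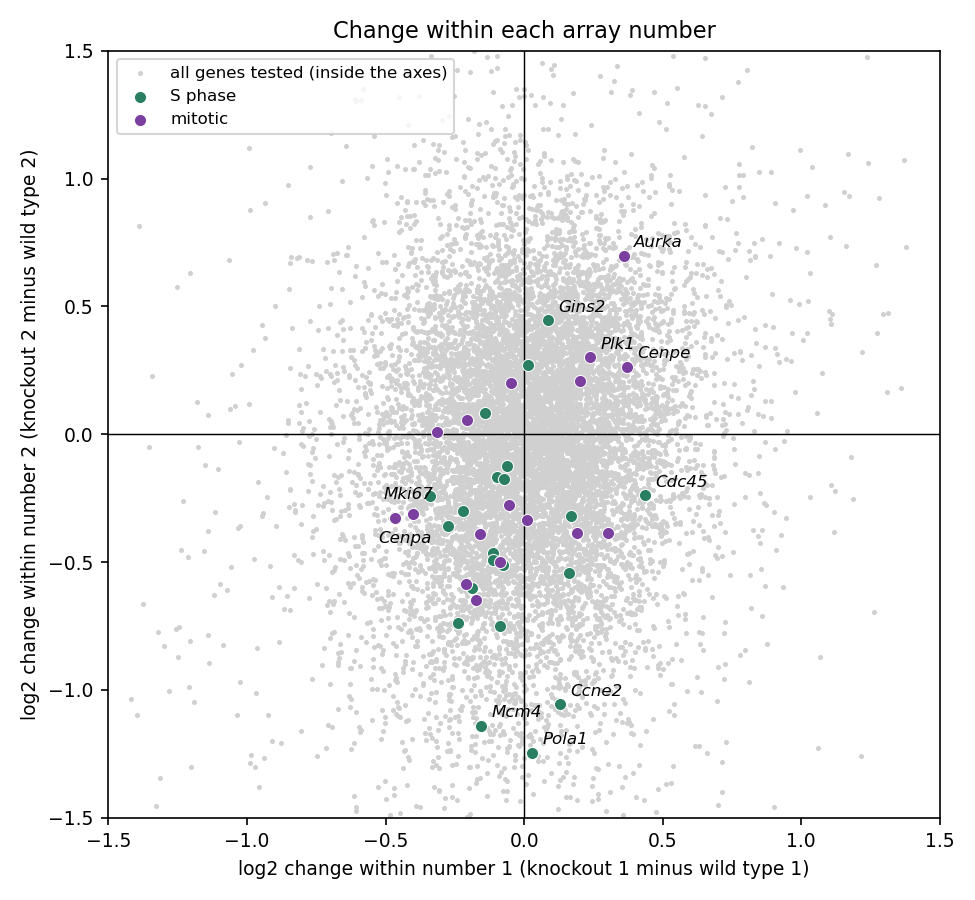
Log2 change within number 1 (horizontal axis) against that within number 2 (vertical axis), with S-phase members in green, mitotic members in purple and all tested genes inside the axes in grey. The lower left field holds 20 of the 38 members, the upper right 6, and Mcm4, Pola1 and Ccne2 lie below -1 within number 2.

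The medians depended on single arrays, wild type 2 above all. Without wild type 2 the S-phase median was -0.12, and without any other array it lay between -0.31 and -0.23. The number of changes below 0 was then 14 of 21 in S phase and 8 of 17 in mitosis, and without knockout 2 it was 17 and 12. Without wild type 2 the mitotic median was 0.054, without wild type 1 it was -0.30, without knockout 1 it was -0.11 and without knockout 2 it was -0.086. With the mean of all probe sets of a gene, the S-phase median was -0.23 and the mitotic median -0.034. Scaling each array to one median, in place of quantile normalization, moved the median of all genes to -0.15 and those of S phase and mitosis to -0.47 and -0.30.

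All probe sets of the members were then counted. Above the filter were 67 probe sets for the 38 genes, of which 50 had a mean change below 0, 35 of 41 in S phase and 15 of 26 in mitosis. Of the 21 genes with more than 1 such probe set, 16 had all of them in one direction. The 5 that did not were Ccne1, Gins2, Rfc3, Cdc20 and Kif11.

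Other genes of the same pathways were taken from lists drawn up with earlier results of these data known. Of 42 further replication genes, 37 were tested and 0 passed the threshold in either direction. Within both numbers 15 were lower and 8 higher (27.5% and 26.1% of all genes), and the median change was -0.090. The lowest p among the lower ones were those of Dut, which removes dUTP, at 205 and 225 in wild type and 161 and 129.9 in knockout (log2 -0.52), and of Rpa1, at 542 and 537 in wild type and 428 and 354 in knockout (log2 -0.45). Both knockout arrays lay below both wild-type arrays for each. Among the higher ones they were Wdhd1 and Orc3, with log2 changes of 0.33 and 0.34 and groups that overlapped.

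Of 50 further mitotic genes, 49 were tested and 0 passed. Within both numbers 17 were lower and 9 higher (27.5% and 26.1% of all genes), and the median change was -0.059. Smc4, a condensin subunit, had -0.52, but 0.025 within number 1 and -1.06 within number 2. Ndc80, which ties kinetochores to microtubules, had -0.44 and was lower within both numbers. Kif23 and Cdca2 had the lowest p among the higher ones, with 0.41 and 0.26.

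Of 25 regulators of the programme, all 25 were tested and 0 passed. Within both numbers 10 were lower and 6 higher (27.5% and 26.1% of all genes), and the median change was 0.0029. E2f8, a repressor among the E2F factors, measured 90.9 and 46.2 in wild type and 56.2 and 2.50 in knockout (log2 -1.16, SE 0.57, limma's adjusted p of 1), and its groups overlapped. Cdk6, a partner of the D cyclins, measured 245 and 188 in wild type and 158 and 139 in knockout (log2 -0.49, SE 0.30) without overlap. Lin37, a subunit of the DREAM complex, measured 66.9 and 81.3 in wild type and 99.0 and 115 in knockout (log2 0.45, SE 0.30), and Ccnd3, a D cyclin, had 0.45 with groups that overlapped. Foxm1 (0.41) and Mybl2 (-0.12), the activators of the mitotic genes, had groups that overlapped.

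Markers of the cell types in the tissue moved on the same arrays, and their part in the values above was not tested. All 8 genes listed as markers of the lens epithelium, where lens cells divide, were tested. Whether their RNA came from that tissue alone was not tested. Of these, 5 were lower and 0 higher within both numbers, none passed, and their summed intensity was 4118 and 3607 in wild type and 3347 and 3262 in knockout. The brightest were Gja1 (1710, 1288, 1396 and 1200 on wild type 1 and 2 and knockout 1 and 2) and Pax6 (975, 1241, 787 and 1438), and the lowest value, 29.9, was that of Foxe3. The sums are carried by these bright genes, and the median log2 change of the 8 markers was -0.33, against -0.29 for the S-phase members. Sox2 had -0.77, Tfap2a -0.71, Tfap2b -0.70, Pdgfra -0.45, Gja1 -0.20 and Pax6 -0.046, while Cdh1 had 0.034 and Foxe3 0.10. Between the wild-type arrays, number 2 less number 1 had a median of -0.40 for these 8 markers, against 0.38 for the S-phase members. Wild type 2 was the higher for 3 of the 8 markers, against 17 of the 21 S-phase members. For 9 of 10 fibre markers with a probe set, the sum was 43702 and 41692 in wild type and 41766 and 44933 in knockout. Within both numbers 3 were lower and 3 higher (27.5% and 26.1% of all genes). Bright crystallins carry much of that sum. Both knockout arrays lay below both wild-type arrays for Bfsp1 (log2 -1.06) and Dnase2b (-1.25), against 14.3% of all genes. They lay above both for Cryaa (0.076) and Mip (0.29), against 12.7% of all genes. For 2 of the 9, the unadjusted p was under 0.05 in limma's fit (2.35% of all genes), and none passed. Bfsp2 measured 60.1 on knockout 1 and 2907 on knockout 2.

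Muscle markers summed to 2648 and 1321 in wild type and 128 and 138 in knockout. They were lower on both knockout arrays for 9 of 9 genes (14.3% of all genes), with 3 past the threshold (0.0259% of all genes). Those past it in limma's fit were Actc1 (log2 -3.98, adjusted p = 0.00719), Myl1 (log2 -3.70, adjusted p = 0.00719) and Acta1 (log2 -3.28, adjusted p = 0.0453). Fibroblast and pericyte markers were lower within both numbers for 7 of 8 genes (27.5% of all genes). Their sums were 1892 and 2341 in wild type and 1408 and 1055 in knockout, and the brightest were Rgs5 and Col3a1. Rgs5 (824 and 666 in wild type, 1090 and 516 in knockout, log2 0.019) carried much of the sum. The median log2 change of the list was -1.41, and both knockout arrays lay below both wild-type arrays for 6 of the 8 (14.3% of all genes). In limma's fit 6 had an unadjusted p under 0.05 (2.35% of all genes), with none past the adjusted threshold. Retina markers (5 of 8 with a probe set) summed to 1821 and 1789 in wild type, 2054 on knockout 1 and 813 on knockout 2, with Neurod1 and Neurod4 the brightest. Erythroid markers (5 of 8) summed to 91.7 and 158 in wild type and to 135 and 514 on knockout 1 and 2, with Alas2 and Hbb-b2 the brightest. Endothelial markers summed to 715 and 575 in wild type and 591 and 865 in knockout (Cldn5 and Kdr the brightest), and macrophage markers to 620.2 and 645 in wild type and 597 and 717 in knockout (Csf1r and C1qb the brightest). None of the markers measured was at exactly 0, though Tnnt3 of muscle (0.76) and Aif1 of macrophages (0.68) came near it on an array, both on knockout 2.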

How the data were processed

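RNA of 4 lens samples was labelled with biotin after oligo-T7 reverse transcription and hybridised to arrays of 45101 probe sets, per the labels' protocols. The authors deposited 1 linear intensity per probe set and array. How probes were summarised and background was corrected is not stated in the labels used. Scale differed between arrays, so values were brought to one distribution (quantile normalization, limma 3.58.1 under R 4.3.3), and log2 was taken after adding 16. The 64 control probe sets were then left out. A platform annotation named 1 gene for 34945 probe sets, several for 932 and none for 9160, and symbols were updated through RefSeq gene IDs. A gene entered the test if its mean over the arrays was at least 4.86 on the log2 scale, the median of the non-control probe sets (an intensity of 13.0).

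Wild type and knockout were set against each other in limma's linear model with an intensity trend, without a block for the array number. P-values were adjusted over all 11595 genes with the Benjamini-Hochberg method at 0.05. The members and all lists were chosen with earlier results of these data known. All members may be named. Values on every array were planned for the 2 lowest p and the 2 highest means in each role, and those of Mcm5 and Cenpe, and the means of Cdt1, Plk1 and Bub1, were added after they were seen. Of the pathway lists, the 2 lowest p in each direction were named, and Foxm1 and Mybl2 were added. The lowest marker values and the further markers of the lens epithelium and the fibres were also named after they were seen. So were the Y-linked Uty, Kdm5d and Eif2s3y. Of the marker lists, the 2 brightest genes are named. Alternatives were other scalings, offsets, filters and probe set rules, a fit with no trend, a block for the number, and leaving out each array. The number of arrays limits the precision.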

Additional observations from a re-analysis of the deposited data

How the results depend on the processing

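The count of members past the threshold was 0 under all 13 alternatives in limma. For the changes of single members with all 4 arrays, 331 kept their direction and side of the threshold under an alternative and 7 turned. Averaging all probe sets of a gene gave Cdc20 0.035, Cenpa 0.025, Kif11 0.059 and Rfc3 0.024, and median scaling gave Bub1b -0.10, Cdc45 -0.0019 and Rpa2 -0.068. With that scaling the median of all genes was -0.15, below the changes of Bub1b, Cdc45 and Rpa2. When an array was left out, 17 members turned under at least 1 omission, and 20 of 38 turned under no alternative. The ranges of those 17 over the 4 omissions were, in log2, Aurkb from -0.46 to 0.15, Birc5 from -0.47 to 0.14, Bub1b from -0.026 to 0.18, Ccna2 from -0.43 to 0.28, Ccne1 from -0.31 to 0.065, Cdc20 from -0.36 to 0.033, Cdc45 from -0.20 to 0.40, Cdk1 from -0.044 to 0.45, Cenpe from -0.041 to 0.68, Kif11 from -0.37 to 0.18, Kif20a from -0.30 to 0.22, Mcm10 from -0.48 to 0.100, Mcm2 from -0.31 to 0.13, Prim1 from -0.64 to 0.058, Rfc3 from -0.40 to 0.34, Rfc4 from -0.38 to 0.23, Rpa2 from -0.23 to 0.51. The mitotic median ranged from -0.30 to 0.054 when an array was left out. The cause was not tested.

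With the array number as a replicate block, the changes are the same by construction. Of all genes 200 then passed, against 4 without it, of the members 0, with 6 at an unadjusted p under 0.05 and a lowest adjusted p of 0.12 (Mcm4). The labels tie the numbers to no litter, batch or day. Same-numbered arrays deviated from their group means together (r = 0.43 across the 11595 genes tested, which are not independent replicates), and with 2 arrays per group this correlation is the same for both numbers. The count over all genes was 9 with median scaling, 7 with trimmed-mean scaling, 0 with no filter (550 at an unadjusted p under 0.05) and 0 when the probe sets of a gene were averaged (271), and 4 to 262 when an array was left out (262 without knockout 1, 61 without knockout 2). Offsets of 1 and 64, the filter at the 70th percentile and the fit with no trend gave 3 to 5. A fit without an array leaves 1 array in a group, which is assumed to vary like the other group.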
